A study of Rattus norvegicus with 56 samples.

Results

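The genes described here encode the proteins of the cytosolic ribosome. They were chosen by name: a probe set had to carry a single symbol of the ribosomal protein families Rpl or Rps, with the kinases of the Rps6k family left out, and each gene was read from its probe set with the highest mean over the 24 rats. This gave 44 of the 10411 genes with a single symbol on the array, 30 of the large subunit and 14 of the small subunit. The study read mammary gland RNA of female rats of the inbred Wistar Furth strain on 56 single-colour Affymetrix arrays. Treated rats had an intervention that the labels name RXR treatment, RXR commonly standing for the retinoid X receptor, a nuclear receptor; which compound was used, its dose and the age of the rats were not stated in the sources used here. Control rats are labelled as control with no further detail. Of 12 treated and 12 control rats with 1 array each, diestrus was recorded for 6 treated and 9 control rats, and proestrus or estrus for the remaining 6 treated and 3 control rats.

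Mixtures of the labelled targets from these rats made up 6 treated and 6 control pools of 2 and 4 treated and 4 control pools of 3. A pool of all 12 was made for each group and put on 4 arrays. From rat 3 of either group, 2 more arrays were hybridised. The pools hold the rats of the single arrays, so they repeat the hybridisation and are not independent animals. Control pool of 12 replicate 4 stood apart: with the average of the single rats subtracted, its values over all probe sets correlated with the other 3 arrays of its pool at r = 0.08 to 0.19, while those of the treated pool of 12 correlated at 0.48 to 0.82. Defining markers of the gland were bright: Epcam, an epithelial adhesion protein, averaged 11.39 log2 in treated and 11.82 log2 in control rats, and Fabp4, the fatty acid binding protein of adipocytes, 13.04 log2 in treated and 12.73 log2 in control rats.

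Ribosomes are made of a small subunit, which reads the messenger RNA, and a large subunit, which joins amino acids and releases the chain through an exit tunnel. With few exceptions the proteins are present in equal amounts, and their genes are usually expressed together. Their mRNAs begin with an unbroken run of pyrimidines, the terminal oligopyrimidine tract, through which the mTOR pathway controls their translation in mammals, and the protein Larp1 binds that tract. In the mammary gland, demand for ribosomes grows with epithelial growth and milk secretion.

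Runs of C and T were looked for in the DNA around the annotated starts. RefSeq promoter sequences of the rat assembly GRCr8 were found for 37 of the 44 genes. The 40 bases around the start, 20 before it and 20 from it onward, are shown for the genes with the largest falls described below. They are also shown for Rps23, which had the longest run, and for the 4 genes that did not pass the test and had an entry. Capitals mark the longest unbroken run of C and T in this window.
Rpl13a (chr1:104748894-104748933, minus strand): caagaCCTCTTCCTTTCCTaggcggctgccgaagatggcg
Rps15 (chr7:10068096-10068135, minus strand): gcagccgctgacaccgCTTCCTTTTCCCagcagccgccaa
Rpl35a (chr11:81235002-81235041, minus strand): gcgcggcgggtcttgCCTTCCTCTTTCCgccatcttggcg
Rpl14 (chr8:129163600-129163639, plus strand): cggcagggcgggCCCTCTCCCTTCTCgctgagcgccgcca
Rpl22 (chr5:168117941-168117980, plus strand): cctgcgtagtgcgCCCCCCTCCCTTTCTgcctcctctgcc
Rps24 (chr16:96497-96536, plus strand): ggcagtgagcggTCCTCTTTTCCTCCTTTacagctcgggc
Rps28 (chr7:15311314-15311353, minus strand): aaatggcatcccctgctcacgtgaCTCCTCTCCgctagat
Rpl24 (chr11:58128386-58128425, minus strand): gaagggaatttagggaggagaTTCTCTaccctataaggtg
Rps23 (chr2:23814497-23814536, plus strand): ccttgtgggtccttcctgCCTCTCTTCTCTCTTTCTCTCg
Rps4y2 (chr4:183000893-183000932, plus strand): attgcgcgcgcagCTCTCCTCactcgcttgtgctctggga
Rpl3l (chr10:14258426-14258465, plus strand): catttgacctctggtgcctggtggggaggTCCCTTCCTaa
Rpl7l1 (chr9:21695698-21695737, plus strand): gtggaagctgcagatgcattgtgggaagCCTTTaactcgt
Rps27l (chr8:76443638-76443677, plus strand): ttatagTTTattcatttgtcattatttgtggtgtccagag

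A run of at least 8 pyrimidines lay in this window in 24 of the 37 genes (64.9%), against 15.5% of all 33469 promoters and 15.3% of the 21851 promoters of protein-coding genes. The run was longest in Rps23, at 21 bases, and it was 20 bases long in Rpl27a and in Rpl34. Among the genes that were lower in treated rats it was present in 22 of 33, and among those that did not pass it was present in 2 of 4, Rps4y2 and Rpl3l. Over the whole 300 bases of each promoter and on both strands, AAGATGG, letters found in binding sites of the factor Yy1, stood in 21.6% of the 37 genes and in 7.01% of all promoters. CCGGAAG, the core bound by Ets factors, stood in 24.3% of the 37 genes and in 8.75% of all promoters, and the TATA box letters TATAAA in 16.2% and in 14.2%. Among promoters of protein-coding genes the shares were 7.29% for AAGATGG, 10.7% for CCGGAAG and 13% for TATAAA. On the other strand CCGGAAG reads CTTCCGG and can overlap a pyrimidine run, and a match is a description of the letters only. Annotated starts can lie some bases away from the start used in this tissue, so a run outside the first base does not show that the mRNA lacks one. A counted run need not touch the start or be the tract: in Rpl3l it began at base 10 counted from the start.

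Ribosomal protein genes were lower in treated rats across both subunits. Of the 44 genes, 39 fell and 0 rose in the comparison of 12 treated with 12 control rats, tested with limma across all probe sets, while 9.59% of all 15866 probe sets were called lower and 18.1% were called in either direction. The differences were small and even: the 39 genes fell by between 8.46% and 20.2% of the control level, with a median of 13.9%, on the linear scale. The median log2 difference of all 44 genes was -0.20 (range -0.32 to 0.07), beside a median of 0.00 over all probe sets, and 43 of the 44 differences were negative, beside 51.1% of all probe sets. The adjusted p of the 39 ran from 4.05e-06 to 0.0155. The size and the count moved with the setting: quantile normalization gave a median of -0.13 with 30 genes called, beside 10.4% of all probe sets called lower. The mean of luminal epithelial markers as a covariate, a setting chosen after seeing the data, gave -0.13 with 23 called, beside 4.66%. Luminal markers were lower and adipocyte markers higher in the same treated rats, with values given further on. In whole tissue, fewer cells of a type and less RNA per cell cannot be told apart.

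The mean over the 44 genes showed the shift rat by rat. It was lowest at 11.68, had a median of 11.80 and reached 11.84 log2 in treated rats, against 11.87, 11.98 and 12.01 log2 in control rats. Every treated rat lay below every control rat on this mean. Among single genes, 10 of 44 had all 12 treated rats below all 12 control rats, as did 0.139% of all probe sets. These were Rps9, Rpl14, Rps24, Rpl7, Rpl19, Rps3a, Rpl34, Rpl3, Rps23 and Rpl23.

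**Figure D1:**
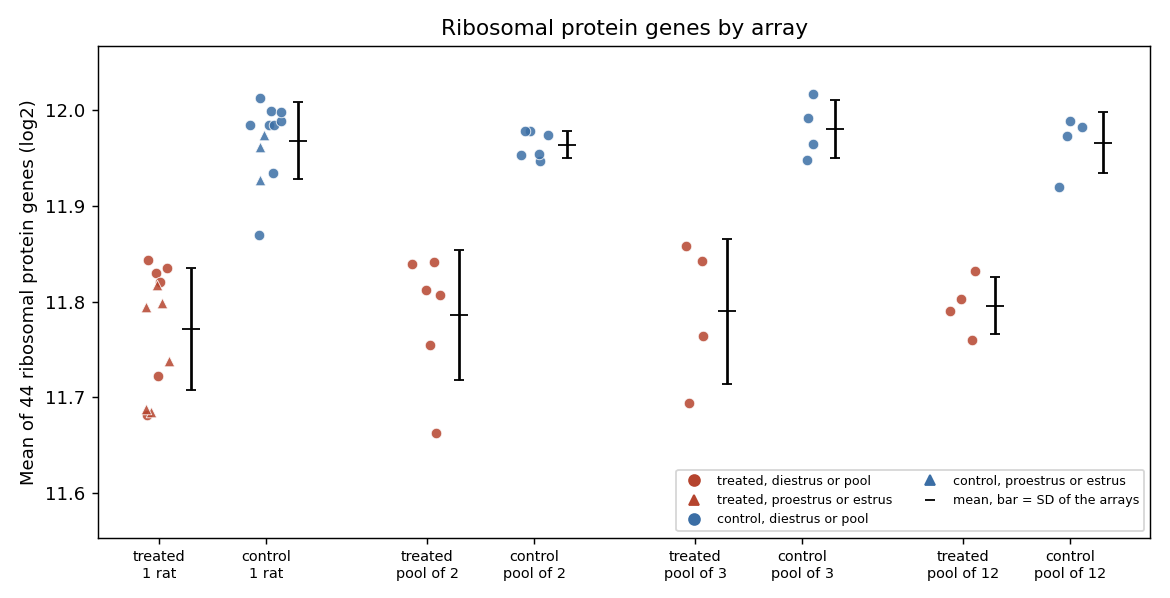
Mean log2 value of the 44 ribosomal protein genes on each array (vertical axis, starting above 0), for treated and control arrays of 1 rat, pools of 2, pools of 3 and pools of 12; triangles are rats in proestrus or estrus, and the bar beside each group is its mean with the SD of its arrays. In single rats the treated values end at 11.84 and the control values begin at 11.87, and the groups do not overlap in any pool size.

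The 10 largest falls included 6 genes of the large and 4 of the small subunit. Rpl13a, a large subunit protein often used as a reference gene for normalisation, was 11.55 at the lowest, 12.06 at the median and 12.21 at the highest in treated rats, against 12.19, 12.35 and 12.45 log2 in control rats. Of the treated rats, 11 lay below every control rat, and Rpl13a fell by 0.32 ± 0.06 on the log2 scale (SE), with an adjusted p of 0.000181. Rps9, at the channel where mRNA enters the small subunit, was 12.31, 12.57 and 12.71 (lowest, median, highest) in treated rats, against 12.73, 12.85 and 12.96 log2 in control rats. The groups did not overlap, and the log2 difference was -0.32 ± 0.04 (SE), with an adjusted p of 1.02e-05. Rps15, which reaches towards the decoding site, was 12.07, 12.18 and 12.33 in treated rats, against 12.24, 12.51 and 12.60 log2 in control rats. A single control rat, number 14, lay among the treated rats at 12.24, and the difference was -0.31 ± 0.04 (SE), with an adjusted p of 4.75e-06.

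Rps28, which lies where mRNA leaves the small subunit, was 11.95, 12.12 and 12.33 (lowest, median, highest) in treated rats, against 12.29, 12.42 and 12.48 log2 in control rats, a log2 difference of -0.30 ± 0.04 (SE) with an adjusted p of 7.56e-06. Here too 11 treated rats lay below every control rat. Rpl35a, a large subunit protein whose human gene is mutated in Diamond-Blackfan anaemia, was 11.60, 11.80 and 11.96 in treated rats, against 11.80, 12.12 and 12.25 log2 in control rats, a difference of -0.30 ± 0.05 (SE) with an adjusted p of 4.95e-05. Its overlap came from control rat 14, since 11 of the 12 control rats lay above every treated rat. Rpl14 was 11.52, 11.96 and 12.11 in treated rats, against 12.15, 12.20 and 12.30 log2 in control rats, without overlap, a difference of -0.28 ± 0.05 (SE) with an adjusted p of 0.000124. The second probe set of Rpl14 was dim, at 6.21 ± 0.09 in treated and 6.19 ± 0.08 in control rats (SD, n = 12 each), and did not pass (adjusted p = 0.865).

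Rpl22, a large subunit protein that mice can live without, differed by -0.27 ± 0.04 (SE), Rpl23a, the docking site of the signal recognition particle at the tunnel exit, by -0.26 ± 0.04 and Rpl24, which forms a bridge between the subunits, by -0.26 ± 0.04. Their means were 12.17 ± 0.13 for Rpl22, 11.96 ± 0.08 for Rpl23a and 11.66 ± 0.13 for Rpl24 in treated rats (SD, n = 12), against 12.44 ± 0.07, 12.22 ± 0.11 and 11.93 ± 0.08 log2 in control rats (SD, n = 12). Every treated rat lay below the control median for all 3 genes. Rps24, needed to mature the RNA of the small subunit, had the smallest adjusted p of the 44 genes, 4.05e-06. It was 12.42, 12.61 and 12.70 (lowest, median, highest) in treated rats, against 12.76, 12.84 and 12.92 log2 in control rats, a difference of -0.26 ± 0.03 (SE) without overlap.

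**Figure D2:**
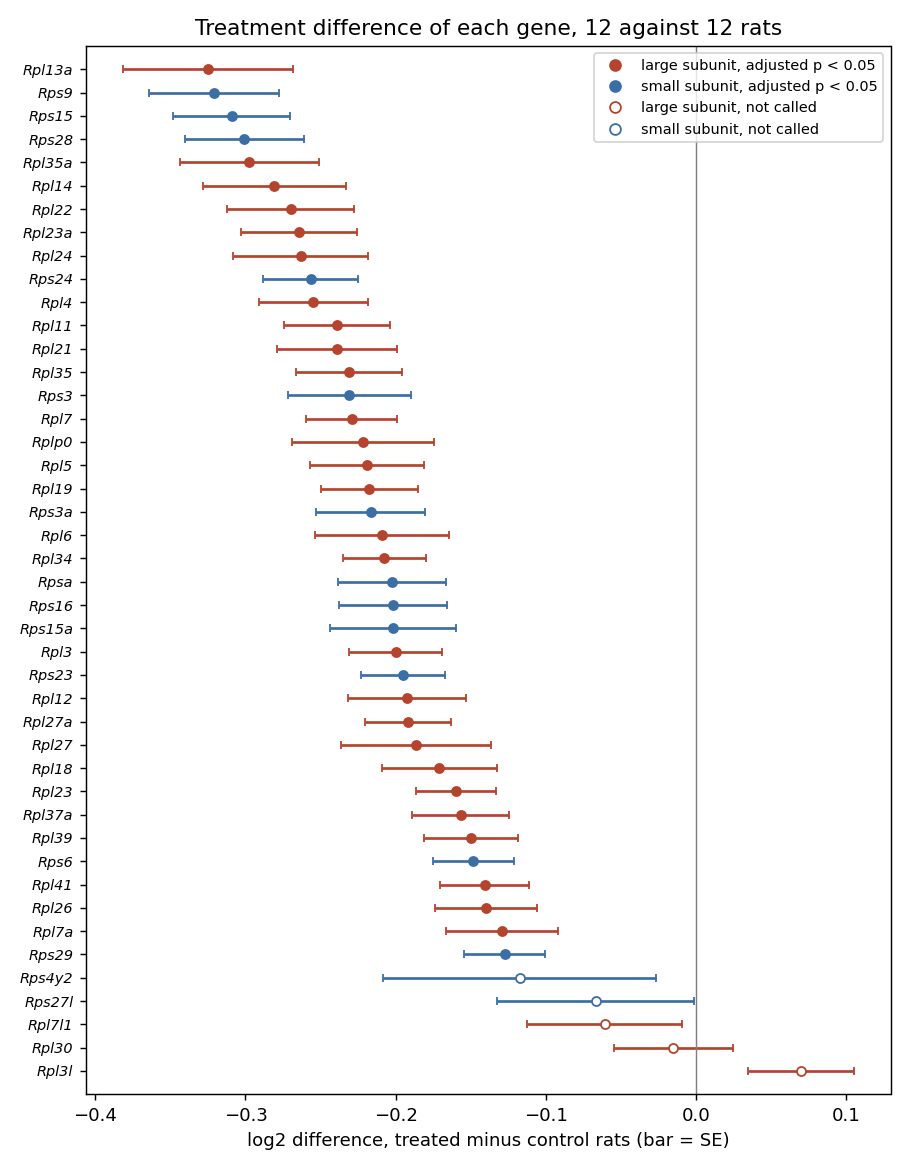
Log2 difference, treated minus control rats, of each of the 44 genes (horizontal axis, bar = SE, 12 rats a group), ordered from the largest fall at the top; red marks the large and blue the small subunit, and open points did not pass the adjusted p of 0.05. The 39 filled points all lie left of 0, and the 5 open points at the foot are Rps4y2, Rps27l, Rpl7l1, Rpl30 and Rpl3l.

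Genes of both subunits and of each structural group measured were lower. In the large subunit 27 of 30 genes were lower, with a median of -0.21 over all 30, and in the small subunit 12 of 14, with a median of -0.20 over all 14. Of the stalk, which recruits the elongation factors, the measured genes Rplp0 (-0.22 ± 0.05, SE) and Rpl12 (-0.19 ± 0.04) both fell. Rpl5 (-0.22 ± 0.04) and Rpl11 (-0.24 ± 0.04), which carry the 5S RNA into the large subunit and bind Mdm2 when free of it, both fell. Mdm2 itself, the ligase that degrades p53, had a log2 difference of -0.05 ± 0.05 (SE) and did not pass (adjusted p = 0.568).

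Around the tunnel exit, all 5 measured genes fell: Rpl23a as given above, Rpl35 by 0.23, Rpl19 by 0.22, Rpl39 by 0.15 and Rpl26 by 0.14 on the log2 scale. Rpl19 showed the cleanest separation of these, at 12.70, 12.96 and 13.01 (lowest, median, highest) in treated rats, against 13.07, 13.16 and 13.27 log2 in control rats. Rpl39, which lines the tunnel, was read from a dim probe set, at 7.81 ± 0.07 in treated and 7.96 ± 0.08 log2 in control rats (SD, n = 12 each), with an adjusted p of 0.00115. Among proteins of the mRNA entry and decoding region, all 4 measured genes fell. Beside Rps9 and Rps15, these were Rps3, part of the entry site, at -0.23 ± 0.04 (SE), and Rps23, which contacts the decoding site, at -0.20 ± 0.03. Rps23 was 12.81, 12.94 and 13.03 in treated rats, against 13.07, 13.12 and 13.20 log2 in control rats. No gene of the group fused to ubiquitin or a ubiquitin-like protein was among the 44.

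The 5 genes that did not pass were all read from probe sets with a mean under 10 log2. The 4 measured copies of a usual ribosomal protein gene, as their names give them, were among these 5. Rpl3l, which replaces Rpl3 in striated muscle, was 5.12, 5.22 and 5.29 (lowest, median, highest) in treated rats, against 5.02, 5.12 and 5.32 log2 in control rats, near the bottom of the array's range of 4.12 to 14.1, and was the sole gene with a positive difference, 0.07 ± 0.04 (SE; adjusted p = 0.191). Rpl3 itself, near the catalytic centre, was 13.04, 13.19 and 13.28 in treated rats, against 13.32, 13.38 and 13.44 log2 in control rats, a difference of -0.20 ± 0.03 (SE; adjusted p = 4.72e-05). Rps27l, a copy of Rps27 that p53 induces in human cells, differed by -0.07 ± 0.07 (SE; adjusted p = 0.568), Rpl7l1, a relative of Rpl7 found on precursors of the large subunit, by -0.06 ± 0.05 (adjusted p = 0.496) and Rps4y2 by -0.12 ± 0.09 (adjusted p = 0.441). The usual Rpl7 differed by -0.23 ± 0.03 (SE; adjusted p = 8.34e-06). Rpl30, at 5.61 ± 0.10 in treated and 5.63 ± 0.09 log2 in control rats (SD, n = 12 each), did not pass either (adjusted p = 0.865). Its probe set is dim, the array holds 2 brighter ones that carry Rpl30 together with other symbols and were not used for it, and the value given may not represent the gene.

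Brightness went with the outcome. Of the 35 genes with a mean of at least 12 log2, 35 fell, while of the 6 with a mean under 10 log2, 1 fell, Rpl39. Bright probe sets that name no ribosomal protein gene were also called more often than probe sets in all: of 83 with a mean of at least 12 log2, 31 were lower (37.3%) and 19 higher, so that 60.2% were called, beside 9.59% lower and 18.1% called of all probe sets. Their median was -0.03, beside -0.21 for the 35. With each array centred on the mean of those 83, a setting chosen after seeing the data, 38 of the 44 genes were called. The share of all probe sets called lower was then below the 9.59% without this centring. A further 34 probe sets carry a ribosomal protein symbol together with other symbols and are not named here; 31 of these were lower, 0 higher, with a median of -0.22. RefSeq lists 1192 rat genes whose symbols follow the same naming, 883 of them pseudogenes, so probes may also bind RNA of near-identical copies, which these arrays cannot separate. Of the 3 probe sets of Rpsa, the laminin receptor and small subunit protein, the one used differed by -0.20 ± 0.04 (SE) and the others by -0.36 ± 0.04 and -0.25 ± 0.04, all called.

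**Figure D3:**
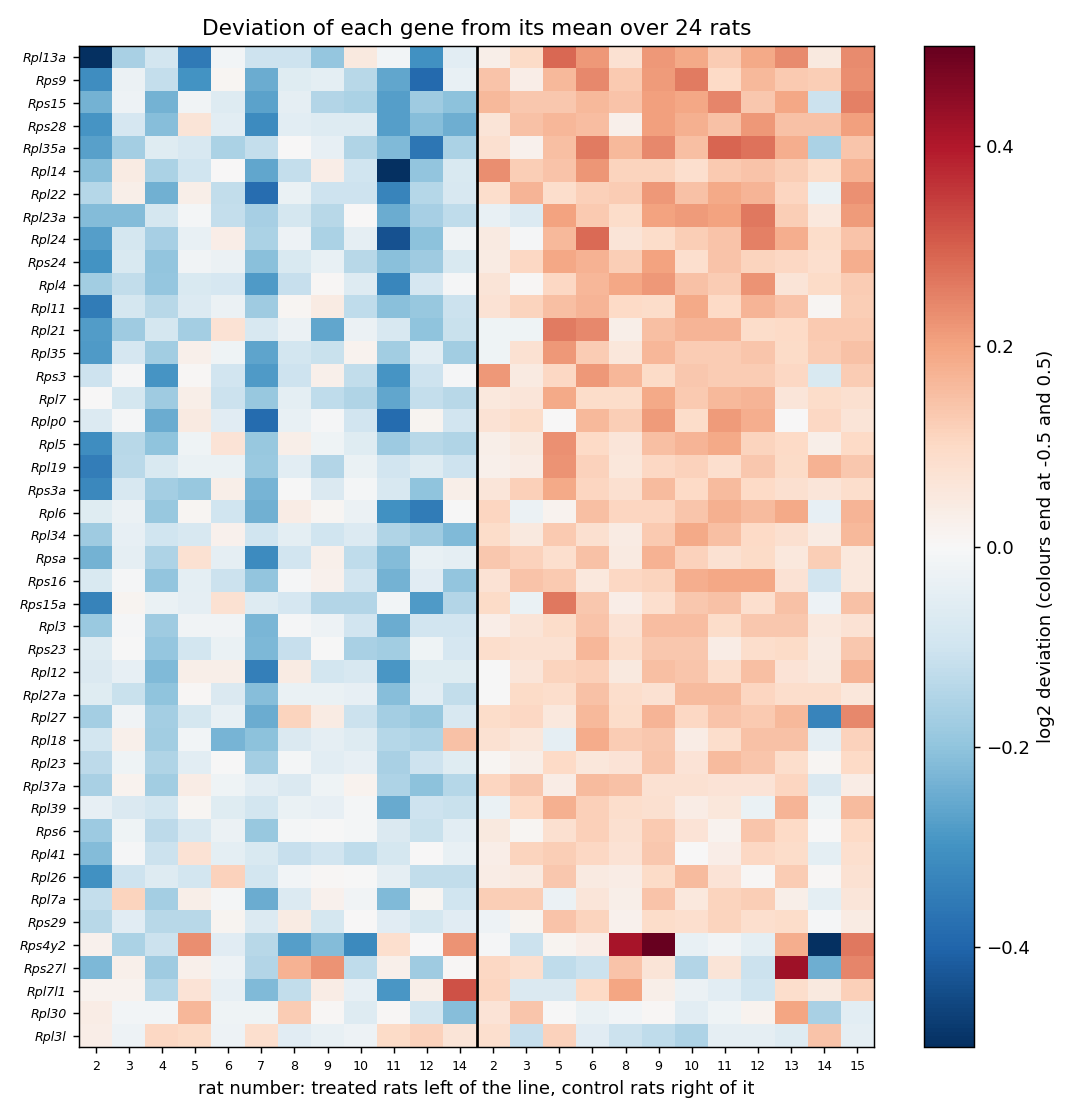
Deviation of each of the 44 genes (rows, ordered by their difference, the largest fall at the top) from its own mean over 24 rats, in log2, for the 12 treated rats left and the 12 control rats right of the line. Nearly all rows are blue on the left and red on the right, treated rats 2, 7 and 11 are the deepest blue columns, and the 5 rows at the foot, Rps4y2, Rps27l, Rpl7l1, Rpl30 and Rpl3l, have no such division.

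Genes with bright probe sets varied together within a group. With group means removed, the mean pairwise correlation over 24 rats was 0.33 for the 44 genes (median 0.37) and 0.02 over all pairs of probe sets. For the 38 genes with a mean over 11 log2 the mean was 0.41 (median 0.46), and 656 of their 703 pairs were positive, while between these 38 and the 6 dim genes the median was 0.13. This describes points that share an array, its labelling and its scaling. The pairs over all probe sets include dim ones, and pairs of bright probe sets of other genes were not compared. Treated rats 7, 11 and 2 had the lowest means over the 44 genes, at 11.68, 11.68 and 11.69, and control rat 14 the lowest of the controls, at 11.87. The SD between rats within a group had a median of 0.09 over the 44 genes, beside 0.06 between repeat arrays of the same rat or pool of 12, and it was above the repeat SD in 41 of the 44. Over all probe sets these medians were 0.12 and 0.10, and the SD between rats was above the repeat SD in 63.1%. Without control pool of 12 replicate 4 it was above the repeat SD in 42 of the 44 genes and in 69.2% of all probe sets. In 37 of the 44 genes the SD was larger among treated than among control rats, as it was in 57.9% of all probe sets, and this was not tested.

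The steadiest genes were Rpl23 (SD 0.06), Rps29 (0.06) and Rps6 (0.06), and the most variable Rps4y2 (0.24), Rps27l (0.17) and Rpl13a (0.14). Rps6, the protein that the S6 kinases downstream of mTOR phosphorylate, was 13.08, 13.21 and 13.27 (lowest, median, highest) in treated rats, against 13.27, 13.35 and 13.41 log2 in control rats, with a difference of -0.15 ± 0.03 (SE; adjusted p = 0.000277). Rpl23, at -0.16 ± 0.03, had no overlap between the groups, and Rps29, at -0.13 ± 0.03, was the smallest of the 39 falls.

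Among genes outside the 44, the one that followed their mean most closely over the 24 rats, with group means removed, was Rack1, a scaffold protein bound to the small subunit (r = 0.87). It averaged 12.44 ± 0.16 in treated and 12.71 ± 0.10 log2 in control rats (SD, n = 12 each), a difference of -0.27 ± 0.05 (SE; adjusted p = 0.000613). Next came Nono (r = 0.84), a nuclear RNA-binding protein, Snrpe (0.84), a core protein of the splicing particles, Litaf (0.84) and Bex1 (0.83). All 4 were lower in treated rats, by between 0.19 and 0.30 on the log2 scale.

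Genes of the wider translation machinery were compared next. All these lists were chosen with earlier results of these data known, and counts are by limma over all probe sets. Of all probe sets, 9.59% were called lower and 18.1% in either direction. Of 6 elongation factor genes 5 fell and 0 rose, with a median of -0.26: Eef1g by 0.29, Eef2, which moves the ribosome along the mRNA, by 0.26 and Eef1d by 0.26 on the log2 scale. Of 13 measured genes outside the 44 whose mRNAs start with an oligopyrimidine tract, 11 fell and 0 rose, with a median of -0.27. Naca, which binds nascent chains at the tunnel exit, had the smallest p of these and a difference of -0.36 ± 0.05 (SE; adjusted p = 1.77e-05). Most of the 11 are elongation or initiation factors counted in those lists as well, and only Naca, Rack1 and Vim are not. Of 28 initiation factor genes 8 fell (28.6%) and 0 rose, with a median of -0.07. Those of smallest p were Eif3h (-0.33 ± 0.06), Eif3f (-0.31 ± 0.06), both subunits of the factor eIF3, and Eif4b (-0.27 ± 0.06), a helper of the helicase eIF4A.

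Genes that build ribosomes did not pass: of 34 nucleolar assembly factors and RNA polymerase I subunits 0 fell and 0 rose by limma, beside 18.1% of all probe sets called. Their median was -0.05, and 3 of them had an unadjusted p under 0.05. Their mean ran from 8.07 to 8.68 log2 in treated and from 8.21 to 8.72 log2 in control rats. Of the 6 ribosomal protein genes with a mean under 10 log2, 1 fell. The mean of the elongation factors ran from 11.7 to 12.0 log2 in treated and from 11.9 to 12.1 log2 in control rats. The lists thus differ in brightness, and its part in these counts was not tested. Of 19 genes of Myc, the mTOR pathway and tract regulation, 2 rose and 1 fell, which is 15.8% called, beside 18.1% of all probe sets, so the list as a whole was called no more often than the array. As values of single genes, Deptor, an mTOR-binding inhibitor, averaged 10.25 ± 0.29 in treated and 9.62 ± 0.18 log2 in control rats (SD, n = 12 each) and rose by 0.64 ± 0.09 (SE; adjusted p = 2.87e-05). Rheb, the activator of mTOR, rose by 0.13 ± 0.03 (adjusted p = 0.00789), and Tsc1, which restrains Rheb, fell by 0.19 ± 0.06 (adjusted p = 0.036). Myc had a difference of 0.05 ± 0.13 (SE; adjusted p = 0.850), Mtor of -0.05 ± 0.04 (0.493) and Larp1 of 0.06 ± 0.05 (0.421), and none of these passed. The activity of these proteins, which depends on phosphorylation, is not measured by arrays.

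Markers of luminal, basal and adipose cells differed between the same groups more often than probe sets in all, of which 18.1% were called: 53.3% of the luminal, 62.5% of the basal and 88.9% of the adipocyte markers were called. Of 15 luminal epithelial markers 8 fell and 0 rose, and their mean ran from 8.57 to 8.98 log2 in treated and from 8.84 to 9.08 log2 in control rats. The smallest p belonged to Epcam (-0.43), Cdh1, the adhesion protein E-cadherin (-0.39), and Cldn7 (-0.47). Of 8 basal markers 4 fell and 1 rose, with means of 9.55 to 10.18 log2 in treated and 9.81 to 10.39 log2 in control rats. Oxtr, the oxytocin receptor, rose by 0.90, and those that fell were Trim29 (-0.34), Mylk (-0.35), Acta2 (-0.36) and Myh11 (-0.38). The listed genes Krt5, Krt14, Krt17 and Trp63 were not among those called. Of 9 adipocyte markers 7 rose and 1 fell, with means of 10.18 to 11.12 log2 in treated and 9.84 to 10.75 log2 in control rats. Lep, the hormone leptin, rose by 1.01 and Aqp7, a glycerol channel, by 1.10, while Cfd, the protein adipsin, fell by 0.69.

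Lymphocyte and endothelial markers were called no more often than all probe sets, at 0 of 9 and 16.7%, beside 18.1%, and macrophage markers in 42.9% in mixed directions. Of 9 lymphocyte markers limma called 0, while 1 reached an unadjusted p under 0.05, and their mean ran from 6.09 to 6.28 log2 in treated and from 6.12 to 6.27 log2 in control rats. Of 7 macrophage markers 2 rose and 1 fell (Cd14, at -0.76), with means of 9.09 to 9.52 log2 in treated and 9.10 to 9.55 log2 in control rats, and of 6 endothelial markers 1 fell (Vwf, at -0.28), with means of 8.05 to 8.59 log2 in treated and 8.11 to 8.80 log2 in control rats. With the mean of the luminal markers per rat as a covariate, a setting chosen after seeing the data, 23 of the 44 genes were called lower, beside 4.66% of all probe sets, and the median of the 44 was -0.13. With that of the adipocyte markers, 26 were called lower, beside 9.59% of all probe sets, and the median was -0.14. The part of cell composition in the falls was not tested. The difference between 3′ and 5′ control probe sets for Gapdh and beta-actin, a sign of RNA quality, was 0.92 ± 0.15 log2 in treated and 0.89 ± 0.08 log2 in control rats (SD, n = 12 each), and with it as a covariate 39 genes were called. The share of all probe sets called lower was then slightly below the 9.59% without a covariate.

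**Figure D4:**
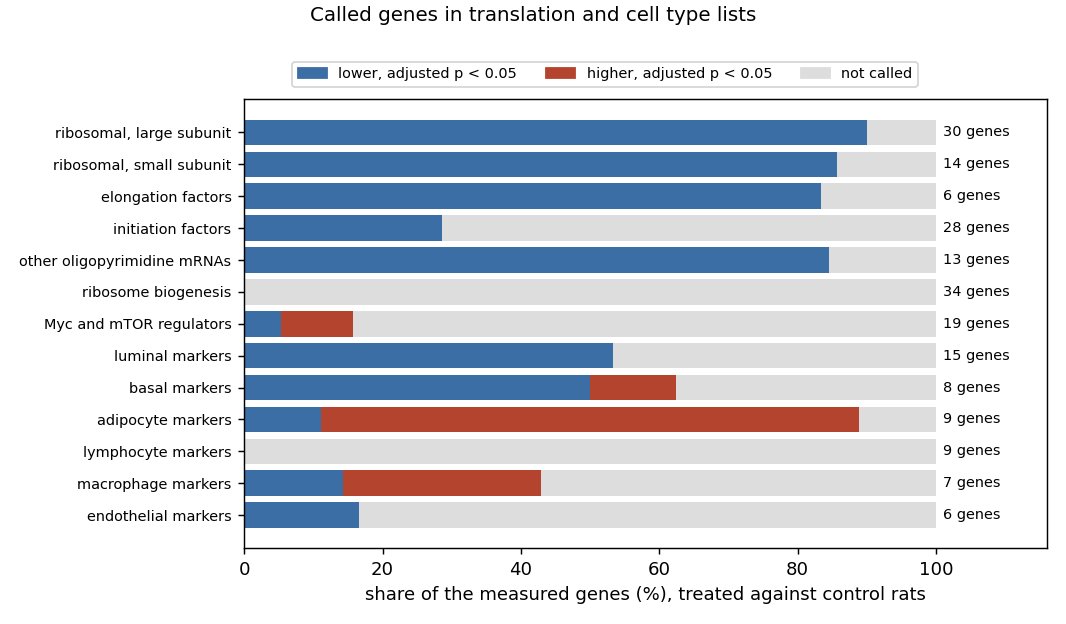
Share of the measured genes of each list that was lower (blue), higher (red) or not called (grey) in treated against control rats, with the number of measured genes at the right. Both ribosomal subunits, the elongation factors and the other oligopyrimidine mRNAs are mostly blue, ribosome biogenesis is grey throughout with 0 of 34 called, and the adipocyte markers are mostly red with 7 of 9 higher. The lists differ in brightness, and some genes stand in several lists.

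The pools showed the same direction. In pools of 2, 26 of the 44 genes were lower and 0 higher, beside 3.67% of all probe sets called lower, and the median difference was -0.18, beside 0.00 over all probe sets. In 27 of the 44 genes every treated pool of 2 lay below every control pool, as in 1.78% of all probe sets. In pools of 3, 8 were lower and 0 higher, beside 2.97% of all probe sets, with a median of -0.20, beside -0.03 over all probe sets. In 30 of the 44 every treated pool of 3 lay below every control pool, as in 7.25% of all probe sets. The 8 genes called in pools of 3 were Rps28, Rpl4, Rps15, Rpl23a, Rplp0, Rps3, Rps15a and Rpsa. The count in pools of 2 was 16 without control pool replicate 1 or 5 and 17 without control pool replicate 2 or 6. The count in pools of 3 was 2 without treated pool replicate 1, 1 without treated pool replicate 2, 5 without control pool replicate 1 or 2, and 2 without control pool replicate 3 or 4. Calls over all probe sets dropped too. In each of these runs the share called lower was below the 3.67% (pools of 2) or 2.97% (pools of 3) with every pool. Whether the 44 genes lost calls more often than other probe sets was not tested.

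Values of single pools show how close the arrays lay. Rps28 measured 12.12, 12.07, 12.15 and 12.20 log2 in the treated pools of 3, against 12.45, 12.42, 12.41 and 12.61 log2 in the control pools of 3. The groups did not overlap, and the difference was -0.34 ± 0.07 (SE; adjusted p = 0.012). Rps15 measured 12.20, 12.16, 12.33 and 12.43 in the treated pools of 3, against 12.61, 12.59, 12.58 and 12.62 log2 in the control pools of 3, a difference of -0.32 ± 0.07 (SE; adjusted p = 0.0203). The control pools lay within 0.04 of each other, and the treated pools were spread more widely. Rpl14 measured 11.71, 11.87 and 12.06 (lowest, median, highest) in the treated pools of 2, against 12.15, 12.23 and 12.31 log2 in the control pools of 2, with the largest difference at that size, -0.35 ± 0.06 (SE; adjusted p = 0.00157). Rpl13a, the largest fall in single rats, measured 11.79, 12.04 and 12.20 in the treated pools of 2, against 12.00, 12.25 and 12.39 log2 in the control pools of 2, and did not pass there.

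The pool that combined treated rats 4 and 7 had the lowest mean over the 44 genes among the pools of 2, 11.66 log2, and these rats had 11.72 and 11.68 on their own arrays. Among the pools of 3 the lowest was that of treated rats 10, 11 and 4, at 11.69, with 11.79, 11.68 and 11.72 on the rats' own arrays. The pools of 12 have no biological replicate and no test. Their means over the 44 genes were 11.80, 11.76, 11.83 and 11.79 on the treated arrays, against 11.98, 11.97, 11.99 and 11.92 log2 on the control arrays, the last being the array that stood apart. The median difference was -0.18, beside -0.02 over all probe sets, and 42 of the 44 differences were negative, beside 58.9% of all probe sets. Without control pool of 12 replicate 4 the median was -0.19, and 44 were negative, beside 50.0% of all probe sets.

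**Figure D5:**
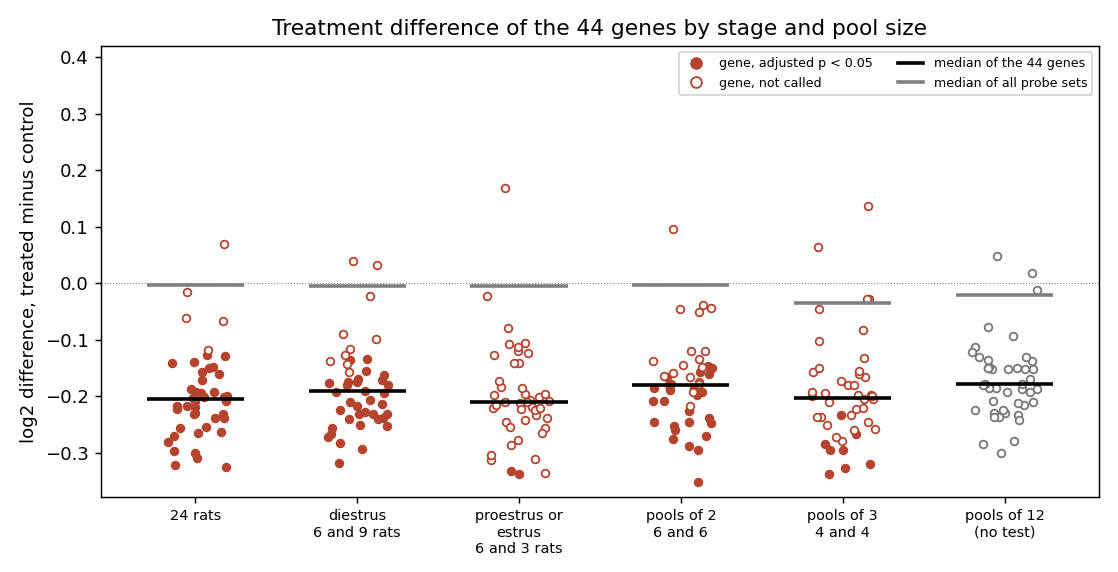
Log2 difference, treated minus control, of each of the 44 genes (points) in the 24 rats, by stage and by pool size; filled points passed the adjusted p of 0.05, black bars are the median of the 44 genes and grey bars that of all probe sets. The black bars lie between -0.21 and -0.18 in all 6 sets, while filled points number 39, 34, 2, 26 and 8 in the 5 sets with a test.

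No difference between oestrous stages passed the test for these genes. With treatment as a covariate, 0 of the 44 were called between rats outside diestrus and rats in diestrus, where 0% of all probe sets were called, and 3 of the 44 had an unadjusted p under 0.05. The median difference was -0.03, beside 0.01 over all probe sets. The genes of smallest p were Rpl35a at -0.10 ± 0.05 (SE), Rps15a at -0.09 ± 0.04, Rpl24 at -0.09 ± 0.05 and Rpl5 at -0.07 ± 0.04, each with an adjusted p of 0.999. Rpl5 had an unadjusted p of 0.0766.

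The median treatment difference was negative in each stage. In diestrus, with 6 treated and 9 control rats, 34 genes were lower and 0 higher, beside 4.43% of all probe sets called lower, and the median was -0.19. Rps9 had the smallest adjusted p there, 0.00196, with a difference of -0.29 ± 0.05 (SE). In proestrus or estrus, with 6 treated and 3 control rats, 2 were lower and 0 higher, beside 0.284% of all probe sets, and the median was -0.21. These 2 were Rps15, at -0.34 ± 0.06 (SE; adjusted p = 0.0384), and Rpl35a, at -0.33 ± 0.07 (adjusted p = 0.044). Leaving out treated rat 3 gave 6 calls outside diestrus, with 80 of all 15866 probe sets lower. Leaving out treated rat 2, 10, 11, 12 or 14 or control rat 3, 8 or 10 gave 0. In those runs 0 to 15 of all probe sets were lower, against 45 with every rat. Tested as an interaction, the treatment difference was not called different between stages for any of the 44 genes, where 0% of all probe sets were called, and 0 of the 44 had an unadjusted p under 0.05. The smallest unadjusted p values belonged to Rpl11 at -0.14 ± 0.07 (SE; p = 0.0608 by limma), Rpl3l at 0.14 ± 0.07, Rpl37a at -0.11 ± 0.07 and Rpl26 at -0.11 ± 0.07. For Rpl11 the difference was -0.31 ± 0.07 outside diestrus and -0.18 ± 0.04 in diestrus (SE).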

How the data were processed

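Labelled targets were made from mammary gland RNA and pooled after labelling, per the labels. The authors deposited 1 value per probe set and array, and the unit, log2, was inferred from their range of 4.12 to 14.1. Neither software nor normalization is stated in the sources used here. The array medians lay between 7.40 and 7.48, so differences are relative to the array as a whole, and the number of arrays limits the precision. That single rats are separate animals follows from the labels.

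The 57 control probe sets were left out and no filter was applied to the remaining 15866. Symbols came from the platform's annotation, updated by Entrez ID to RefSeq genes of GRCr8. Differences were tested with limma 3.58.1 (lmFit and eBayes, R 4.3.3) on 1 array per rat, and apart in each pool size below 12. Benjamini-Hochberg adjustment ran over all probe sets, with a threshold of 0.05. Stage was fitted with treatment as a covariate. Scripts were tested on simulated data. Python 3.11.15, numpy 2.4.6 and pandas 2.3.3 were used for the summaries and matplotlib 3.10.9 for the plots.

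The genes, the lists and the tests were chosen with earlier results of these data known. Named genes were the 10 largest falls among called genes, those in the structural groups, the 3 steadiest and 3 most variable, the 4 of smallest p for stage and interaction, the 5 outside genes most correlated with their mean, and the 3 called genes of smallest p in each list. Other genes, such as Rpl3, Rpl7, Rpsa, Mdm2, Myc, Mtor and Larp1, were named after their values were seen. Alternatives covered scaling, a dim filter, the prior, array weights, several probe sets per gene, covariates, a block by rat number, the threshold and leaving out arrays. The title was followed where the source label contradicts it, on 3 of 4 arrays in either pool of 12.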

Additional observations from a re-analysis of the deposited data

Results flagged for a closer look

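In 108 checks of a group of arrays for 1 array far from the rest, made for the mean over the 44 genes, the RNA quality measure and the 10 largest falls, 6 were marked, and chance marks about 5% of such groups. In control rats in diestrus, rat 14 measured 12.24 log2 for Rps15, where the others lay between 12.48 and 12.60. The same rat measured 11.80 log2 for Rpl35a, where the others lay between 12.04 and 12.25. Rat 2 of that group measured 12.33 log2 for Rps28, where the others lay between 12.41 and 12.48. Among the arrays of the control pool of 12, replicate 4 measured 12.35 log2 for Rps28, where the other 3 lay between 12.45 and 12.46. Among the control pools of 3, replicate 1 measured 11.74 log2 for Rpl24, where the other 3 lay between 11.88 and 11.90. The 3′ minus 5′ difference of the RNA quality controls was 0.85 log2 in treated pool of 12 replicate 1, where the other 3 arrays lay between 0.92 and 0.93.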

How the results depend on the processing

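In single rats the 39 called genes kept their sign under every alternative run. There quantile normalization gave a median of -0.13 with 30 calls, beside 10.4% of all probe sets called lower. The luminal covariate gave 23 calls, beside 4.66% of all probe sets called lower, and a median of -0.13. The adipocyte covariate gave 26 calls, beside 9.59%, and a median of -0.14. Both covariates were chosen after seeing the data. Calls were lost for 9 genes with quantile normalization, for 16 and 13 with these covariates and for 1, Rpl7a, at an adjusted p of 0.01. With rat number as a replicate block, 35 were called with a median of -0.19, and Rpl7a, Rpl18, Rpl27 and Rpl6 were not. The share of all probe sets called lower was then also below the 9.59% without the block. The rat numbers share nothing the labels state. The 10 same-numbered pairs had correlations of deviations from -0.39 to 0.36, 5 of them over 0.1. Of the 10 rat numbers, 1 was closest to its own. No paired analysis was possible for the pools because their numbers are accession order. Leaving out each rat gave 39 calls each time, with medians from -0.22 to -0.19. Lower calls over all probe sets were fewer than with every rat in most of these runs and more in the others. In pools of 2, quantile normalization gave 11 calls and a median of -0.13, the trended robust prior 16 calls, leaving out the pools of rats 2 and 3 (chosen after seeing the data) 13, and leaving out each pool 16 to 27. Over all probe sets, quantile normalization gave more lower calls there, and that prior and leaving out the pools of rats 2 and 3 gave fewer. Leaving out each pool also gave fewer, except for control pool replicate 3. In pools of 3, median centring gave 4 calls, array weights 20, quantile normalization a median of -0.12, leaving out the pools of rats 2 and 3 gave 1 call, and leaving out each pool 1 to 9. Over all probe sets, array weights gave more lower calls there, and median centring and leaving out the pools of rats 2 and 3 gave fewer. Leaving out each pool never gave more. In diestrus quantile normalization gave 19 calls, against 34 at the settings used. The share of all probe sets called lower there was slightly below the 4.43% at those settings. Outside diestrus 45 of all probe sets were lower at the settings used. Median centring gave 1 call there (15 of all probe sets lower), the trended robust prior 0 (30 of all) and leaving out each rat 0 to 6 (0 to 80 of all). Stage and interaction gave 0 calls under every alternative, with stage medians from -0.04 to -0.02 when each rat was left out. The cause of these movements was not tested. Precision is limited by 12 rats a group, by dim probe sets with means under 10 log2 for 6 genes, and by copies of ribosomal protein genes that probes may also bind.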

Other observations

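Repeat arrays of single rats bear on how far 1 hybridisation can move these genes. The mean over the 44 genes was 11.82 log2 on the array of treated rat 3 and 11.80 and 11.89 log2 on its 2 further arrays. For control rat 3 it was 11.93 log2, and 11.97 and 11.98 log2 on the further arrays. All 3 arrays of the treated rat lay below all 3 of the control rat. Rpl13a measured 11.78 and 12.19 log2 on the further arrays of treated rat 3, against 12.32 and 12.29 log2 on those of control rat 3, while Rpl14 measured 11.99 and 12.12 log2 in the treated rat, against 12.30 and 12.28 log2 in the control rat. Rpl24 measured 11.51 and 11.83 log2 in the treated rat, against 11.79 and 11.86 log2 in the control rat, so that its further arrays overlapped.

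The other probe sets of genes with several were of different brightness. For Rps24 the second probe set averaged 8.16 ± 0.28 in treated and 8.38 ± 0.15 log2 in control rats (SD, n = 12 each), a difference of -0.22 ± 0.09 (SE; adjusted p = 0.0795 by limma). For Rpl7 it averaged 6.62 ± 0.16 in treated and 6.78 ± 0.12 log2 in control rats, a difference of -0.16 ± 0.06 (SE; adjusted p = 0.0432). Both probe sets of Rpl7l1 missed the threshold, the second at -0.08 ± 0.05 (SE; adjusted p = 0.277).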
